A study of Mus musculus with 8 samples.

Results

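The Serpina3 paralogs Serpina3c, Serpina3f, Serpina3g, Serpina3k, Serpina3m and Serpina3n were matched by symbol in the deposited gene tables, and all 6 were found among 52636 genes listed. All 6 passed the filter on low counts, which left 15562 genes for testing. They are 6 of 14 Serpina3 genes and pseudogenes in the tables. In GRCm38 (mm10) they lie on chromosome 12, with Serpina3c at 104146907 to 104153929, Serpina3f at 104214544 to 104221129 and Serpina3g at 104236147 to 104241939. Serpina3k lies at 104338486 to 104345739, Serpina3m at 104387157 to 104394259 and Serpina3n at 104406646 to 104414334.

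The data are RNA sequencing of whole liver from C57BL/6 mice aged 8 weeks, with 4 libraries per genotype. Both groups carried floxed Ctcf on both alleles, written CTCF fl/fl, and differed in the absence of the albumin-Cre transgene (Albcre-, called WT here) or its presence (Albcre+, called cKO). The albumin promoter is active in hepatocytes, so other liver cells need not lose Ctcf, and no group carried Cre without floxed Ctcf, so that effects of Cre and of the deletion cannot be told apart. The labels do not say that each library came from a separate mouse, so the p-values cover only variation among these libraries, which may be technical.

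Serpins are protease inhibitors that present a flexible reactive centre loop as bait and trap the protease that cuts it. Where human has the antichymotrypsin gene SERPINA3, the mouse carries a tandem cluster of copies whose loops have diverged, so that the copies can differ in the proteases they bind. Most of the copies expressed in liver are secreted by hepatocytes into plasma, and cytokines of the acute phase and growth hormone are known to act on several genes of this group.

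The loop is the part of a serpin that meets the protease, so its coding stretch is printed for each of the 6 genes, 5′ to 3′ from the GENCODE vM1 transcript with the longest coding sequence, which the deposited tables also list for that gene. Capitals mark the 15 bases that encode the start of the conserved hinge before the loop, and the stretch ends in the conserved codons after it.
Serpina3k: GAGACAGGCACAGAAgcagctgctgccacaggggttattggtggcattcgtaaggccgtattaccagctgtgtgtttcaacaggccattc
Serpina3m: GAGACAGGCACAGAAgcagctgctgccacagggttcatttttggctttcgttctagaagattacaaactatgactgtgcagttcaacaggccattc
Serpina3n: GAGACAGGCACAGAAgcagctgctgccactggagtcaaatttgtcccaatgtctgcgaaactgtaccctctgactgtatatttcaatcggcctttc
Serpina3c: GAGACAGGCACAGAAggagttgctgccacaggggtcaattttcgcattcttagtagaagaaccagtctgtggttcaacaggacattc
Serpina3g: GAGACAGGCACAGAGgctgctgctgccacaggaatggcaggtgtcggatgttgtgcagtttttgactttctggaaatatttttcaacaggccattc
Serpina3f: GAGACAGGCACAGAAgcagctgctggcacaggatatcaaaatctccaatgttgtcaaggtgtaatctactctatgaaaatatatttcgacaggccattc

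In every one of the 15 pairs the loop stretch was less alike than the rest of the coding sequence. Serpina3k and Serpina3m shared 82.2% of aligned loop bases and 92.6% of the remaining coding bases. Serpina3g and Serpina3m were the least alike in the loop, with 63.5% against 85%. The coding sequence of Serpina3g in this annotation held 248 codons, against 417 in Serpina3c, 418 in Serpina3k, Serpina3m and Serpina3n, and 445 in Serpina3f.

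This likeness limits how well reads can be assigned. Over the whole coding sequence the pairs were 81.1% to 91.8% identical, with Serpina3k and Serpina3m the closest. Of all 50-base windows of the Serpina3k transcript 82.9% occurred in no other gene's protein-coding transcripts, and 16% were shared with Serpina3m. That transcript has 1654 bases, while the effective length deposited with the counts of Serpina3k is 1871 to 1884 bases. Its reads were thus counted over a longer model, for which these shares need not hold. For Serpina3m 80.9% of such windows were its own, and for Serpina3c 95.9%, Serpina3n 93.3%, Serpina3f 90.5% and Serpina3g 88.3%. With 100-base windows the shares were 93.9% for Serpina3k, 93.9% for Serpina3m and 100% for Serpina3c. The length of the reads was not given in the sources used here. Expected counts that were not whole numbers, which arise where reads were divided between genes, stood in 8 of 8 libraries for 5 members and in 2 of 8 for Serpina3f (tolerance 0.005). Values of single members are therefore estimates, most of all for Serpina3k against Serpina3m.

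Libraries held 43.9 M to 57.3 M assigned counts. Ctcf itself was lower in each cKO library than in each WT library in CPM (counts scaled to library size with edgeR's TMM factors), with 16.5 ± 0.408 in WT and 12.2 ± 0.942 in cKO (mean ± SD, n = 4 each; log2 change -0.44, edgeR adjusted p = 0.00177). In TPM (abundance scaled for transcript length and library) its groups overlapped. Stellate cell and fibroblast markers summed to 122 to 140 CPM in WT and 278 to 372 CPM in cKO, and 11 of 12 tested were higher. T and NK cell markers summed to 3.46 to 4.88 CPM in WT and 6.12 to 11.7 CPM in cKO, and hepatocyte markers to 84904 to 114566 and 98065 to 109017 CPM. Of 8 hepatocyte markers tested 1 was higher and 3 were lower. The largest part of their sum was Alb, with 43659 to 71132 CPM in WT and 61352 to 73912 CPM in cKO. In whole tissue, fewer cells of a type and less RNA per cell cannot be told apart.

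WT replicates 3 and 4 stood apart from the other libraries in acute phase genes. The 28 acute phase genes summed to 41662 and 41434 CPM in WT replicates 3 and 4, to 29575 and 27777 CPM in WT replicates 1 and 2, and to 22114 to 24188 CPM in cKO. Saa1, the acute phase serum amyloid, named here after its values were seen, had 49.1, 60.2, 598 and 1863 CPM in WT replicates 1 to 4 and 27.7 to 36.6 CPM in cKO. The members, their ratios, the family share and the list counts are therefore also given without WT replicates 3 and 4, a fit with 2 WT against 4 cKO libraries that was chosen after the data were seen.

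Of the 6 members 1, Serpina3c, passed the test of genotype (edgeR adjusted p under 0.05) and was lower in cKO; 14.9% of all genes tested were called lower, 15.2% higher and 30.1% in either direction. It was also the only member whose CPM or TPM did not overlap between genotypes, as was the case for 30.6% of all genes tested in CPM and 31.6% in TPM. With 6 members, 1 call is close to either share and says nothing particular about them. The plot of CPM by library shows all 6.

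**Figure D1:**
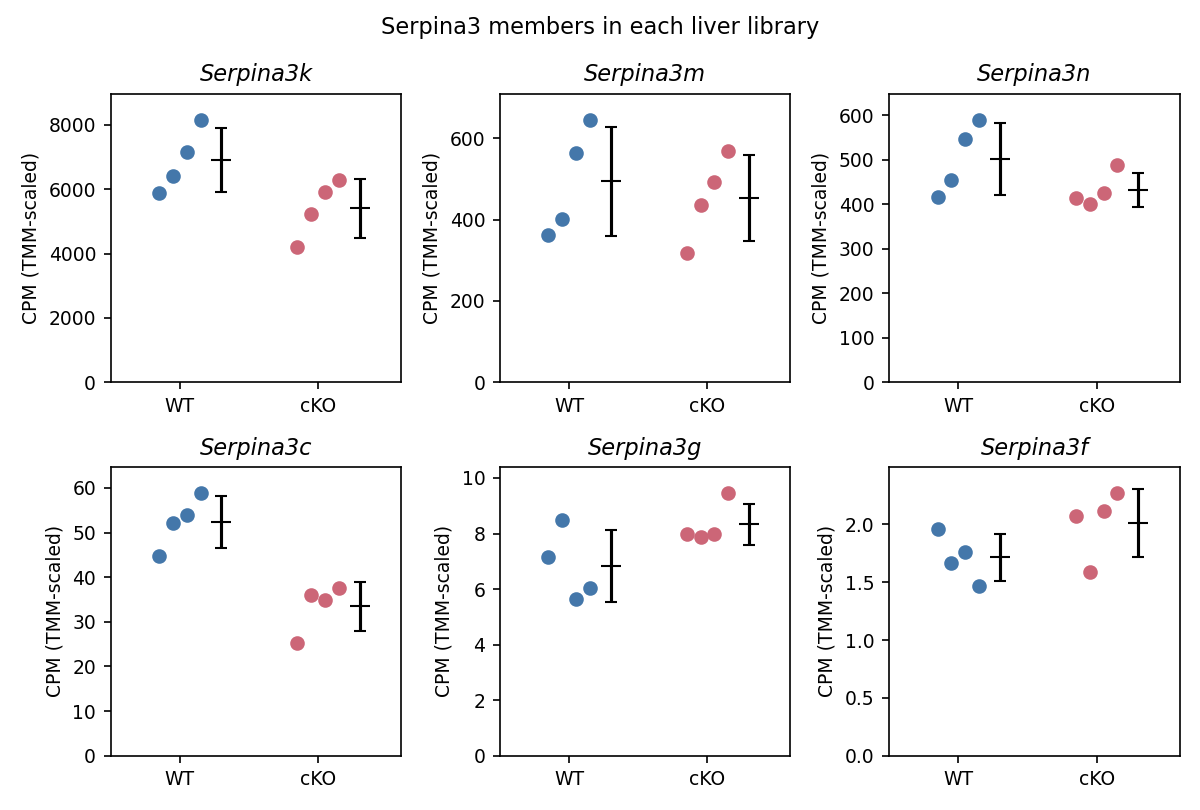
CPM (TMM-scaled, linear axis from 0) of the 6 Serpina3 members in each of 4 WT (blue) and 4 cKO (red) liver libraries, in order of replicate number from left to right, with mean ± SD beside them. The cKO libraries lie below all WT libraries for Serpina3c; for the other 5 members the genotypes overlap.

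The members differed far more from each other than between genotypes. Scaled for length, Serpina3k held 83 to 86.3% of all Serpina3 TPM, and in counts it was the 16th most abundant gene of WT liver. Mean TPM in WT fell in the order Serpina3k (3846 ± 549), Serpina3m (349 ± 93.7), Serpina3n (278 ± 43.7), Serpina3c (26.9 ± 3.04), Serpina3g (4.94 ± 1.13) and Serpina3f (0.905 ± 0.0695), with n = 4 for each. In cKO the order was the same, at 3430 ± 662, 366 ± 92.7, 273 ± 30.6, 19.6 ± 3.52, 6.94 ± 0.655 and 1.22 ± 0.195 TPM. Within a library Serpina3k had 8.71 to 12.7 times the TPM of Serpina3m, and Serpina3n had 9.40 to 17.7 times that of Serpina3c. Serpina3m and Serpina3n were the neighbours in this order whose TPM ranges overlapped within each genotype. Their ratio was above 1 in 7 of 8 libraries and ran from 0.983 to 1.48.

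Serpina3k, known as contrapsin, is a secreted inhibitor of trypsin-like proteases in mouse plasma. It had 5872, 6420, 7160 and 8159 CPM in WT replicates 1 to 4 and 4197, 5213, 5923 and 6285 CPM in cKO replicates 1 to 4. The lowest libraries were cKO replicates 1 and 2, but cKO replicates 3 and 4 reached the range of the lower WT libraries. The means of 6903 ± 990 in WT and 5404 ± 920 in cKO gave a log2 change of -0.35 (SE 0.14, 95% interval -0.62 to -0.09), which did not pass (edgeR adjusted p = 0.0692). The threshold was reached with DESeq2 (adjusted p = 0.0415) and with edgeR without cKO replicate 4 (log2 change -0.43, adjusted p = 0.0484). Leaving out WT replicates 3 and 4 gave -0.19 (edgeR adjusted p = 0.405). In TPM Serpina3k had 3265, 3626, 3929 and 4562 in WT and 2601, 3208, 3843 and 4068 in cKO, again with overlap.

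Serpina3m, the closest relative of Serpina3k in sequence, showed no genotype difference beyond its spread. It had 363, 402, 565 and 646 CPM in the WT replicates and 319, 435, 493 and 568 CPM in the cKO replicates. Both genotypes covered nearly the same range, with the highest library 1.78 times the lowest in each. The log2 change was -0.12 (SE 0.23, 95% interval -0.57 to 0.33; edgeR adjusted p = 0.719). Its sign turned to 0.07 with limma on log2 TPM, to 0.03 without WT replicate 4, to 0.01 without cKO replicate 1 and to 0.25 without WT replicates 3 and 4, where it did not pass either (edgeR adjusted p = 0.44). Summed over Serpina3k and Serpina3m, which does not depend on how their shared reads were divided between them, the level was 6235, 6822, 7725 and 8806 CPM in WT and 4516, 5648, 6416 and 6853 CPM in cKO. The groups of that sum also overlapped, with a log2 ratio of the means of -0.34.

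Serpina3n, a secreted inhibitor of granzyme B and leukocyte elastase that rises in the acute phase, varied less among cKO than among WT libraries. It had 416, 454, 546 and 590 CPM in the WT replicates and 414, 401, 425 and 489 CPM in the cKO replicates. WT replicates 3 and 4 were above every cKO library and WT replicates 1 and 2 were among them. The means were 502 ± 80.2 and 432 ± 38.8 CPM, and the log2 change of -0.21 (SE 0.11, 95% interval -0.43 to 0.00) did not pass (edgeR adjusted p = 0.169). It was -0.01 without WT replicates 3 and 4 (edgeR adjusted p = 0.955).

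Serpina3c, described as a kallikrein-binding serpin, was the member with the largest difference. It had 44.7, 52.1, 53.9 and 58.8 CPM in the WT replicates and 25.3, 36.1, 34.8 and 37.6 CPM in the cKO replicates. Each cKO library was below each WT library, with cKO replicate 1 the lowest, and the same held in TPM, at 22.9 to 30.3 in WT and 14.5 to 22.5 in cKO. The mean fell from 52.4 ± 5.85 to 33.4 ± 5.57 CPM (n = 4 each; log2 change -0.65, SE 0.12, 95% interval -0.89 to -0.40; edgeR adjusted p = 0.00355), which is 63.9% of the WT level. Without WT replicates 3 and 4 the log2 change was -0.53 (edgeR adjusted p = 0.0346). Over all 19 alternative settings it ran from -0.72 to -0.45 and the call was kept.

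Serpina3g, an intracellular serpin that interferon gamma induces and that activated lymphocytes and macrophages express, was at a low level. It had 7.16, 8.49, 5.63 and 6.04 CPM in the WT replicates and 7.98, 7.88, 7.99 and 9.45 CPM in the cKO replicates. The lowest levels were in WT replicates 3 and 4, and WT replicate 2 lay above 3 of the 4 cKO libraries. The means of 6.83 ± 1.28 and 8.32 ± 0.749 CPM gave a log2 change of 0.29 (SE 0.13, 95% interval 0.03 to 0.54), which did not pass (edgeR adjusted p = 0.119). It passed with library size alone (log2 change 0.39, edgeR adjusted p = 0.0397), a scaling that raised the median of all genes by 0.11, with limma on log2(TPM + 1) (0.43, adjusted p = 0.0292) and without WT replicate 2 (0.41, edgeR adjusted p = 0.0344). It was 0.09 without WT replicates 3 and 4 (edgeR adjusted p = 0.645). The T and NK cell markers, of which 5 of 10 tested were higher in cKO, have a summed level of the same order as this gene, and the T cell receptor subunit Cd3e had a mean of 0.298 ± 0.147 CPM in WT against 0.613 ± 0.106 CPM in cKO. Macrophage and Kupffer cell markers summed to 347 to 523 CPM in WT and 287 to 472 CPM in cKO, with 1 of 11 tested higher. B and plasma cell markers summed to 13.2 to 23.4 and 10.6 to 19.2 CPM, with a median log2 change of -0.22 over 7 tested genes. The part of these cells in the level of Serpina3g was not tested.

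Serpina3f was the member with the lowest level. It had 1.96, 1.67, 1.76 and 1.47 CPM in the WT replicates and 2.07, 1.59, 2.12 and 2.27 CPM in the cKO replicates. Of the cKO libraries 3 were above all of WT, while cKO replicate 2 was lower than all WT libraries but replicate 4. The log2 change of 0.23 (SE 0.16, 95% interval -0.09 to 0.54) did not pass (edgeR adjusted p = 0.314), nor did that of 0.15 without WT replicates 3 and 4 (edgeR adjusted p = 0.642). Of the 50-base windows of Serpina3f 6.92% were shared with Serpina3g and 4.52% with Serpina3i, and of its 100-base windows 1.03% and 1.7%. Summed over Serpina3f and Serpina3g, the level was 9.12, 10.2, 7.39 and 7.51 CPM in WT and 10, 9.48, 10.1 and 11.7 CPM in cKO, with overlap. That sum leaves out Serpina3i.

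**Figure D2:**
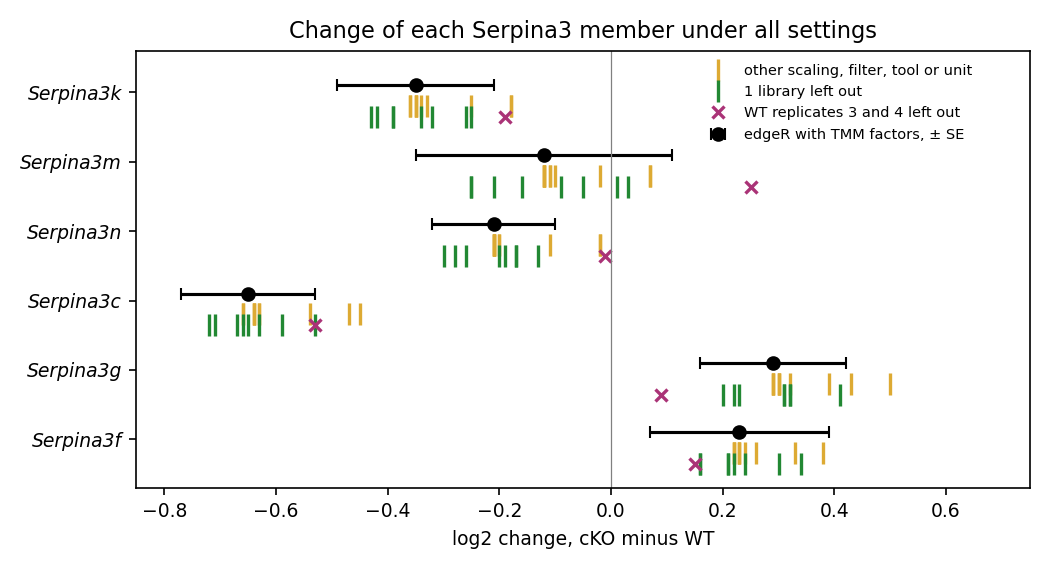
Log2 change of each Serpina3 member, cKO minus WT, from edgeR with TMM factors (black point ± SE), under other scalings, filters, tools or units (yellow), with 1 library left out (green) and with WT replicates 3 and 4 left out (purple cross). Serpina3c stays between -0.72 and -0.45, and the values of Serpina3m lie on both sides of 0, from -0.25 to 0.25.

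The other 8 Serpina3 genes and pseudogenes were at low levels or at 0. Serpina3e-ps had 1.73 ± 0.366 CPM in WT and 1.73 ± 0.396 in cKO (log2 change 0.01, edgeR adjusted p = 0.978, and 0.26 without WT replicates 3 and 4, where it did not pass either), and Serpina3h 0.30 ± 0.0474 and 0.306 ± 0.0908 CPM (log2 change 0.03, edgeR adjusted p = 0.955). Serpina3b and Serpina3i had too few counts to be tested, with 2 to 8 and 1 to 5 counts per library in WT and 5 to 12 and 6 to 16 in cKO. Serpina3a, Serpina3j, Serpina3d-ps and Serpina3l-ps had 0 counts in all 8 libraries, which allows up to 0.0524 to 0.0683 CPM in a library (counting error only).

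The whole family was dominated by Serpina3k, which held 84.5 to 87.6% of its counts. All 14 genes together took 0.653, 0.709, 0.800 and 0.907% of counts in WT replicates 1 to 4 and 0.516, 0.624, 0.731 and 0.758% in cKO replicates 1 to 4. The highest shares were in WT replicates 3 and 4 and the lowest in cKO replicates 1 and 2, with overlap between. The log2 ratio of the mean shares was -0.22, and -0.05 without WT replicates 3 and 4. Leaving out WT replicate 4 alone gave -0.13 and leaving out cKO replicate 1 gave -0.12. In TMM-scaled CPM the log2 ratio of the family means was -0.33, and in TPM -0.14.

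Whether members differed in their response was asked with the log2 ratio of TPM of 2 members within each library, which library scaling does not affect. For all 15 pairs the exact two-sided permutation test over 70 assignments of genotype was used, whose smallest p is 0.0286. At that p stood 6 pairs, all 5 with Serpina3c and the pair of Serpina3g over Serpina3k. After Benjamini-Hochberg adjustment over the 15 pairs each had 0.0714, so 0 pairs passed. As no p can be below 0.0286, even fully separated pairs could not pass unless more of the 15 stood at or near it. That 0 passed therefore does not show that the members of these 6 pairs respond alike. At an unadjusted p under 0.05 the count is those 6.

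Serpina3c was lower relative to every other member. Its log2 ratio to Serpina3k was -7.15, -7.06, -7.17 and -7.23 in WT and -7.49, -7.29, -7.53 and -7.50 in cKO. These values differed little within a genotype and did not overlap between genotypes, with a difference of -0.30 (SE 0.07). Relative to Serpina3m, Serpina3n, Serpina3g and Serpina3f the differences were -0.54 (SE 0.15), -0.45 (SE 0.13), -0.98 (SE 0.23) and -0.89 (SE 0.22), also without overlap. The 5 differences without WT replicates 3 and 4 were -0.35, -0.76, -0.53, -0.62 and -0.72. The ratio of Serpina3g to Serpina3k was higher in cKO by 0.69 (SE 0.25), and by 0.28 without WT replicates 3 and 4.

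**Figure D3:**
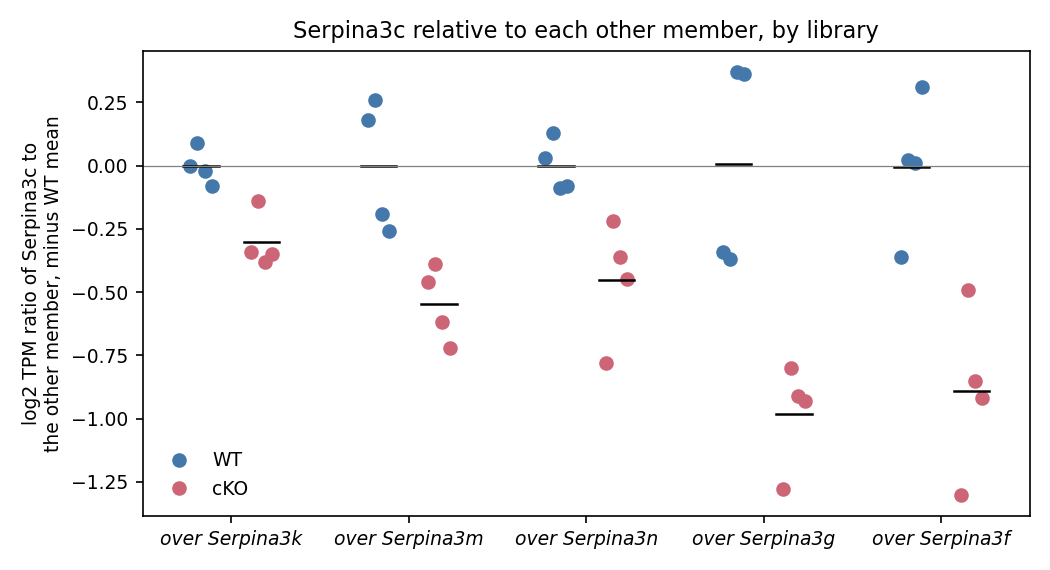
Log2 ratio of Serpina3c TPM to the TPM of each other member in 4 WT (blue) and 4 cKO (red) libraries, centred on the WT mean of that ratio, with the group mean as a line. All cKO libraries lie below all WT libraries in each of the 5 ratios, by 0.30 on average for Serpina3k and by 0.98 for Serpina3g.

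The remaining 9 ratios overlapped between genotypes. Relative to Serpina3k and Serpina3n, Serpina3f differed by 0.59 (SE 0.20) and 0.44 (SE 0.17), each with an exact permutation p = 0.0571. Serpina3g over Serpina3n differed by 0.53 (SE 0.26, exact permutation p = 0.0857), Serpina3g over Serpina3m by 0.44 (SE 0.36, exact permutation p = 0.343) and Serpina3f over Serpina3m by 0.35 (SE 0.30, exact permutation p = 0.371). These 5 positive differences were smaller without WT replicates 3 and 4, at 0.38, 0.19, 0.09, -0.14 and -0.04 in the same order, and the last 2 turned their sign. Serpina3k over Serpina3m differed by -0.25 (SE 0.11) and Serpina3k over Serpina3n by -0.15 (SE 0.10), each with an exact permutation p = 0.0857. Serpina3m over Serpina3n differed by 0.09 (SE 0.16, exact permutation p = 0.714) and Serpina3f over Serpina3g by -0.09 (SE 0.17, exact permutation p = 0.571). These 4 were -0.42, -0.19, 0.23 and 0.10 without WT replicates 3 and 4. With 4 libraries per genotype these values do not show that the members of a pair respond alike.

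Promoter sequence was at hand for 4 of the 6 members, and is printed because Serpina3c and Serpina3n, of which 1 was called, have nearly the same upstream bases. The sequences are RefSeq's for GRCm38.p6, 5′ to 3′ on the gene's strand, and stop at the annotated gene. Capitals mark matches on either strand to the letters searched.
Serpina3c (minus strand, chr12:104153930-104154122): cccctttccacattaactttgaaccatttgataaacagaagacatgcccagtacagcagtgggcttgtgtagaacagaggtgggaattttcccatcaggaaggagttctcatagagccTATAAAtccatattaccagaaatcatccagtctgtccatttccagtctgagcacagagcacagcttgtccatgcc
Serpina3n (plus strand, chr12:104406458-104406645): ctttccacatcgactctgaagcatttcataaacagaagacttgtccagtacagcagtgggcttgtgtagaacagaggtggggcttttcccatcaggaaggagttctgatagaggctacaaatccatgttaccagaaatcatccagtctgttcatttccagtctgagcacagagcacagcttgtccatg
Serpina3f (plus strand, chr12:104214294-104214543): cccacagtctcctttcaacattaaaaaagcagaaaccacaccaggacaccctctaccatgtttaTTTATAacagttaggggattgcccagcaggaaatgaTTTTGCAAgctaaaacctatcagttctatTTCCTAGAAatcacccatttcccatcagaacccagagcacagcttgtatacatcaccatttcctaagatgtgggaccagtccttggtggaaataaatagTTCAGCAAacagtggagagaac
Serpina3g (plus strand, chr12:104235897-104236146): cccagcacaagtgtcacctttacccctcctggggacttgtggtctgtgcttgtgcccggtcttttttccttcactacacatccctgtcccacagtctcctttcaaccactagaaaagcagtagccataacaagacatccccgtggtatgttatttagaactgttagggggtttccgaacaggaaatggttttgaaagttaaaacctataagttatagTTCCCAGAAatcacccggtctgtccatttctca

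Over the 250 bases before the start given by RefSeq, Serpina3c and Serpina3n shared 92.7% of 247 aligned bases, and Serpina3f and Serpina3g 82.9% of 152. Of these 250 bases only 193 in Serpina3c and 188 in Serpina3n lie outside the annotated gene, so the comparison includes bases within it. Serpina3f has 2 promoter entries, of which the first was used. The other pairs shared 68.5 to 73.2%. The letters TTCNNNGAA, a form bound by STAT factors, were in Serpina3f and Serpina3g, at 121 and 33 bases before the start, and in 7.18% of 27025 promoters of that length. The letters TTGCNNAA, of C/EBP factors, matched in Serpina3f only among the 4, at 2 places, and in 9.55% of promoters. TATAAA matched in Serpina3c and Serpina3f and in 13% of promoters. The NF-kB motif and the letters AGGGGGC, a core of CTCF sites, were in 0 of the 4 windows and in 1.17% and 9.29% of promoters. A match is a description of the letters and not of binding.

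Genes with the most similar profile were found by the root mean square difference of log2 CPM, centred per gene, over the 8 libraries, among 8777 named genes whose mean reached 5 CPM. Nearest to Serpina3c were Hnf4aos (0.093), Ces3b (0.1) and C8b (0.145), that is an RNA antisense to Hnf4a, a carboxylesterase and a complement subunit. The strand setting of the counts was not given in the sources used here, so Hnf4aos and Hnf4a may share reads. Nearest to Serpina3g were Gsta4 (0.094), Msn (0.098) and Ugp2 (0.098), and to Serpina3f Kank2 (0.069), Pdf (0.080) and Ankrd50 (0.084). Serpina3k was nearest to Anks1 (0.123), Cep85l (0.129) and Cmah (0.138), and Serpina3m to Cobl (0.127) and Urad (0.147). Serpina3n was nearest to Snd1 (0.064), Mycbp (0.072) and Stat3 (0.075), the transcription factor of interleukin 6 signalling. For Stat3 itself the log2 change was -0.26 (edgeR adjusted p = 0.138).

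Among the members, Serpina3k was nearest to Serpina3n (0.148), Serpina3c to Serpina3k (0.169) and Serpina3m to Serpina3k (0.184). Serpina3f and Serpina3g were nearest to each other (0.206), and farthest from Serpina3c (0.528 and 0.547). These distances describe 8 libraries that share genotype and, in WT replicates 3 and 4, high acute phase levels. Many of the 8777 named genes were nearer to some members than any other member was. For Serpina3f they were 1825, for Serpina3g 1142 and for Serpina3n 341. For Serpina3k, Serpina3c and Serpina3m they were 8, 6 and 5. The nearness of Serpina3f and Serpina3g to each other is thus not particular to them. A gene with a flat profile would lie 0.201 from Serpina3f and 0.232 from Serpina3g, which is the SD of their own profiles.

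Other clade A serpins of liver were lower in part. Of 11 tested 7 were lower and 0 higher, with a median log2 change of -0.43 against -0.01 over all genes tested. DESeq2, limma-voom and edgeR's p before adjustment (under 0.05) gave 0 higher too, and limma on log2 TPM gave 1. Serpina12, which encodes the adipokine vaspin, fell from 2.20 ± 0.690 to 0.225 ± 0.0828 CPM (log2 change -3.27, edgeR adjusted p = 4.25e-05). Serpina11 fell from 229 ± 27.9 to 133 ± 4.96 CPM, and the alpha-1-antitrypsin genes Serpina1c and Serpina1b had log2 changes of -0.62 and -0.43. The next 3 genes are named after their values were seen. Serpina1a and the pseudogene Serpina4-ps1 were among the 7 lower (edgeR adjusted p = 0.0136 and 0.0497), while Serpina1d had -0.08 (edgeR adjusted p = 0.65). How reads were divided among the Serpina1 copies was not examined. Without WT replicates 3 and 4, and also with limma on log2 TPM, 3 of the list were lower, and Serpina1b was then not called.

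Of 12 tested serpins of other clades 4 were higher and 2 lower (median -0.08). The granzyme B inhibitor Serpinb9 rose from 2.5 ± 0.373 to 6.31 ± 1.00 CPM (log2 change 1.33), and the collagen chaperone Serpinh1 and Serpinb6a had 0.82 and 0.62. Antithrombin, Serpinc1, had -0.27 (edgeR adjusted p = 0.020), but it was not called under 7 of 19 alternatives. These included the fits without WT replicate 1, WT replicate 2, cKO replicate 2 and cKO replicate 3. The count of lower genes was 0 without cKO replicate 3, and 1 without WT replicate 2, WT replicate 3 or cKO replicate 2. It was also 1 without WT replicates 3 and 4. Collagen-producing stellate cells, whose markers were higher, are a known source of Serpinh1; their part in its level was not tested.

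Of 10 tested proteases or close relatives of proteases that such serpins can bind, 3 were higher and 3 lower (median 0.30). Plasma kallikrein, Klkb1, fell from 295 ± 15.9 to 216 ± 8.05 CPM (log2 change -0.45, edgeR adjusted p = 0.000855). Another kallikrein gene of the list, Klk1, is named after its values were seen and went the other way. Each cKO library lay above each WT library, with a low mean of 0.475 ± 0.0426 CPM against 0.303 ± 0.0475 in WT. Its log2 change of 0.64 was not called (edgeR adjusted p = 0.0723). Which kallikrein Serpina3c binds was not tested. The cathepsin Ctsl rose from 615 ± 26.3 to 812 ± 77.8 CPM (log2 change 0.40). The elastase Cela1 and the cathepsin Ctsh had log2 changes of -0.56 and -0.33, and Cela1 was not called without WT replicates 3 and 4. Without WT replicate 3, 1 of the list was higher, as it was with both WT replicates left out and with limma-voom.

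Acute phase proteins were lower in part. Of 27 tested 15 were lower and 0 higher, with a median of -0.57. At an unadjusted p under 0.05 edgeR gave 1 higher, as did DESeq2 and limma-voom at an adjusted p under 0.05, and 9 of 19 alternatives in all gave 1 or 2. The lipopolysaccharide-binding protein Lbp fell from 145 ± 16.4 to 99.9 ± 6.91 CPM (log2 change -0.54, edgeR adjusted p = 0.00136), and haptoglobin, Hp, from 8921 ± 2580 to 3986 ± 378 CPM (-1.16). Saa3 and the fibrinogen chain Fga had -1.24 and -0.57. Without WT replicates 3 and 4, 9 were lower and 2 higher, with a median of -0.28. The count of lower genes was 8 without WT replicate 4, cKO replicate 2 or cKO replicate 4 and 9 without cKO replicate 1 or 3. It was 8 with limma on log2 TPM.

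Genes listed for interleukin 6 and STAT3 signalling, which acts on acute phase genes, showed no common direction. Of 21 tested 4 were higher and 1 lower (median -0.10), where 15.2% and 14.9% of all genes tested were, so these few calls say little about the list. The list also held genes outside this pathway, such as Il1r1, Il1b and the glucocorticoid receptor gene Nr3c1. Nr3c1, named here after its values were seen, was among the 4 higher genes (log2 change 0.25, edgeR adjusted p = 0.0414). The receptor subunits Il6st and Osmr had log2 changes of 0.35 and 0.47, the kinase Jak1 0.24 and the receptor Lifr -0.34. The calls of Lifr and Jak1 (edgeR adjusted p = 0.030 and 0.0324) were ended by 9 and 6 of 19 alternatives. Those of Osmr, Lifr and Jak1 ended without WT replicates 3 and 4, where 2 of the list were higher and 0 lower. Without WT replicate 1, WT replicate 3 or cKO replicate 4, 2 were higher. The lower count was 0 without WT replicate 2 or 4 or cKO replicate 2, 3 or 4, and 2 without WT replicate 1.

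Of 21 tested genes of the interferon gamma response, to which Serpina3g belongs by its known regulation, 3 were higher and 5 lower (median -0.02). The immunoproteasome subunit Psmb8 and the transcription factor Irf1 had log2 changes of -0.62 and -0.55, and the receptor subunit Ifngr2 and the GTPase Gbp3 had 0.50 and 0.42. Without WT replicates 3 and 4, 1 was higher and 1 lower, and Irf1 and Gbp3 were not called. The lower count was 1 without WT replicate 3, 2 without cKO replicate 4 and 3 without WT replicate 4 or cKO replicate 3. The higher count was 1 without WT replicate 2, WT replicate 3 or cKO replicate 2. Gbp3 was not called in those last 3 fits, nor Irf1 without WT replicate 3 or cKO replicate 3 or 4.

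Of 14 tested genes of growth hormone and STAT5 signalling 4 were lower and 0 higher (median -0.23). DESeq2, limma-voom and edgeR's p before adjustment (under 0.05) gave 0 higher too. In 5 of 19 alternatives 1 was higher, among them library size alone, limma on log2 TPM and the fit without cKO replicate 4. Igfals fell from 113 ± 6.83 to 63.8 ± 8.81 CPM (log2 change -0.83) and Igf1 from 506 ± 10.7 to 394 ± 18.1 CPM (-0.36). Hnf4a had -0.25 (edgeR adjusted p = 0.0451) and was not called under 14 of 19 alternatives, which included the loss of any single library except WT replicate 1. Of the list 3 were lower without WT replicates 3 and 4.

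**Figure D4:**
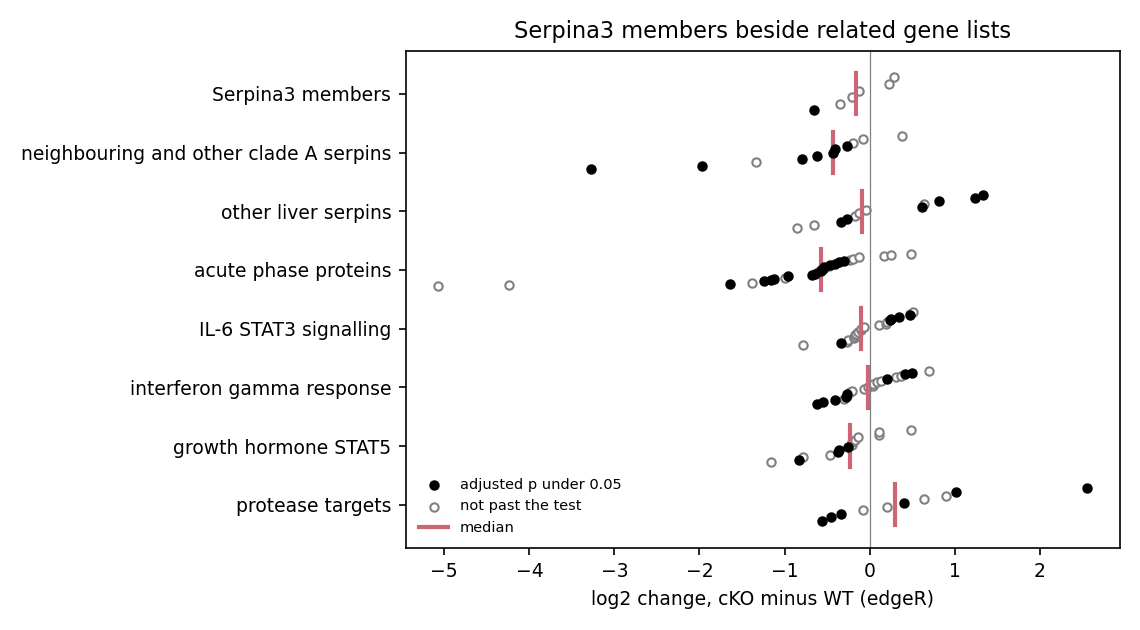
Log2 change, cKO minus WT, of each tested gene of the Serpina3 members and of related lists, from edgeR with TMM factors, with filled points at an adjusted p under 0.05, open points otherwise and the list's median as a red line. The 6 members spread from -0.65 to 0.29 around 0, with 1 filled point, while acute phase proteins have a median of -0.57.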

How the data were processed

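Whole liver RNA of 4 WT and 4 cKO samples was sequenced from TruSeq libraries made with 1 ug of total RNA, per the labels' protocols. Reads were processed with STAR 2.5.1 and RSEM against mm10, per the submitters' processing notes. Which RSEM version, annotation and strand setting were used is not given in these sources. Per the file headers, the deposited values are RSEM's expected counts, which divide shared reads between genes and need not be whole, and the authors' TPM and effective lengths from the same run. Of values above 0, 25% were not whole.

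Expected counts were rounded and tested with edgeR 4.0.16 in R 4.3.3 (filterByExpr with minimum count 10 and total 15, TMM, robust glmQLFit, glmQLFTest, Benjamini-Hochberg over all 15562 genes). CPM are scaled with TMM factors, and limits for a count of 0 with totals alone. Intervals of log2 changes are from normal quantiles of the SE, derived from the F statistic. Ratios of members used TPM + 0.01, and profiles a prior count of 2. The test was tested on simulated data. Counts of each pair of libraries of a genotype differed beyond sampling noise (chi-square divided by its degrees of freedom, 28.6 to 125).

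Alternatives were RLE factors, library size alone, no filter, 1 CPM in 4 libraries, an effective length offset, a replicate block, DESeq2 1.42.0, limma-voom and limma 3.58.1 on log2(TPM + 1) and log2(TPM + 0.1) of genes with at least 0.5 TPM in 4 libraries, and each library left out. Leaving out WT replicates 3 and 4 together was added after seeing the data. The members and gene lists were chosen with earlier results of these data known. Named are the members and other Serpina3 genes, Ctcf, the 4 genes of smallest p per list with the opposite one of smallest p, fixed cell markers and the 3 nearest profiles. Some genes that this rule names are not reported here. Gene positions and promoters are from RefSeq (GRCm38, promoters GRCm38.p6), matched by symbol, with promoters for 4 of 6 members. Coding sequences are from GENCODE vM1 transcripts, for 6 of 6. Loops were located by conserved codons on both sides.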

Additional observations from a re-analysis of the deposited data

Results flagged for a closer look

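Of 42 groups of 4 values checked, 1 had a library far from the others, where chance flags about 1 in 20 groups. In cKO, replicate 4 had 9.45 CPM of Serpina3g and the other 3 had 7.88 to 7.99 CPM, so that the gap to its nearest neighbour was 0.931 of the whole range, above Dixon's critical value. In the same library Serpina3k, Serpina3m, Serpina3n, Serpina3c and Serpina3f were also the highest of cKO. Without cKO replicate 4 the log2 change of Serpina3g was 0.22 (edgeR adjusted p = 0.285).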

How the results depend on the processing

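Serpina3c kept its direction and its call under 19 of 19 alternatives. Of all genes 2367 were higher and 2322 lower. Library size alone gave 3603 and 1318, and limma on log2(TPM + 1) and log2(TPM + 0.1) gave 816 and 798 lower. These settings raised the median of all genes by 0.11, 0.16 and 0.18. Leaving out 1 library gave 1739 to 2540 higher and 1624 to 2486 lower, and leaving out both WT libraries with high acute phase levels 1834 and 1691. Serpina3g passed with library size alone (0.39) and limma on TPM (0.43 and 0.50), and ran from 0.20 to 0.41 with 1 library left out. Serpina3k passed with DESeq2 (-0.35), ran from -0.43 to -0.25 with 1 library left out, and was -0.18 with limma on TPM and -0.19 without WT replicates 3 and 4. Serpina3m turned to 0.07 with limma at both pseudocounts and to 0.25 without WT replicates 3 and 4, and ran from -0.25 to 0.03 with 1 library left out. Ctcf did not pass with limma on TPM (-0.15 and -0.18, adjusted p = 0.138). The causes were not tested. Replicate numbers do not pair the samples by their labels: same-numbered WT and cKO libraries correlated in their deviations at 0.04 to 0.06, other pairs at -0.10 to 0.09, and 3 of 4 WT libraries correlated best with their own number. With the replicate block 2525 genes were higher and 2419 lower, and Serpina3k passed (log2 change -0.36, edgeR adjusted p = 0.0086). Counts divided between near-identical copies limit Serpina3k and Serpina3m, and low counts limit Serpina3f.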
